A study of Homo sapiens with 18 samples.

Results

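Tigger elements are extinct DNA transposons of the human genome, and their RNA was followed here in IMR90 cells, a line of human lung fibroblasts, after the drugs Nutlin and 5-FU. The members were all rows of the deposited repeat tables whose repeat name begins with Tigger, and no measured value was used to choose them. The 5-FU table listed 42637 Tigger copies under 40 names, 1.77% of its 2404193 repeat copies. The Nutlin table listed 31049 Tigger copies under 40 names, 1.56% of its 1996647 copies, and 29357 Tigger copies stood in both tables.

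Tigger elements belong to the pogo-like branch of the Tc1/mariner superfamily. An intact element carried a transposase gene between short inverted repeats and moved by cut and paste into TA dinucleotides, whereas most copies left in the genome are broken, and many short names are internally deleted forms that relied on the transposase of a longer relative. Human genes such as CENPB, POGZ and the TIGD genes descend from transposases of the same branch. No Tigger copy is known to move in humans today, so RNA over a copy can be its own transcript or a piece of a longer one that runs through it. The tables hold repeats only, so neither these genes nor fibroblast markers could be examined, and which of those kinds of transcript was read was not tested.

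The study compared repeat RNA in total RNA from cells given drugs linked in its title to the tumour suppressor p53. Nutlin, an inhibitor of the p53 antagonist MDM2, was given at 5 µM for 6 h. A dose of 375 µM is stated beside it and was read as that of 5-FU, 5-fluorouracil, an antimetabolite that disturbs DNA and RNA synthesis, given for 6, 12 or 24 h. Each drug and time had its own controls given a matching volume of the vehicle DMSO, and untreated cells had their medium renewed 12 h before extraction. All cells were labelled wild type, with 2 libraries in each of 9 groups. Nothing in the labels says that the 2 libraries of a group came from separate cultures, so p-values measure only the spread between these libraries.

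In the Nutlin table the 2 untreated columns were identical and were counted as 1 library. That column was also close to untreated replicate 1 of the 5-FU table, with the same count at 28801 of 29357 shared Tigger copies (98.1%), against 61.4% for untreated replicate 2. Totals ran from 2412334 to 6290320 counts per library in the 5-FU table and from 9109885 to 11880265 in the Nutlin table. In the latter, 1 copy of 7SL RNA alone took 60.4 to 66.3% of the counts. Levels are given as CPM, counts per 1000000 counts of a library with its size scaled by edgeR's TMM factors, and can be compared within a table, not between tables. Levels of a copy and of a whole name also carry different TMM factors.

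Most long Tigger copies were listed with no read at all, and short fragments carried more RNA per kilobase. Of the Tigger copies listed with 5-FU, 13413 (31.5%) stood at 0 in every library, against 41.6% of all copies in the table and 5.94% of copies named Charlie, another family of DNA transposons. Among the 33 Tigger names with at least 200 copies, 8 had 40% or more of their copies at 0 and 16 had 10% or less. Tigger1, the most numerous name, had 4599 of 8931 copies (51.5%) at 0, and Tigger3 (50.7%) and Tigger3b (50.4%) were close to it. Tigger12A (0.366%), Tigger9b (1.1%) and Tigger8 (1.91%) had almost none. The Nutlin table held the same split, with 38.8% of its Tigger copies at 0, 8 of 27 names at 40% or more and 12 at 10% or less. How the authors came to list copies at 0 is not given in the sources used here, so a listing bias by name cannot be told apart from silence.

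**Figure D1:**
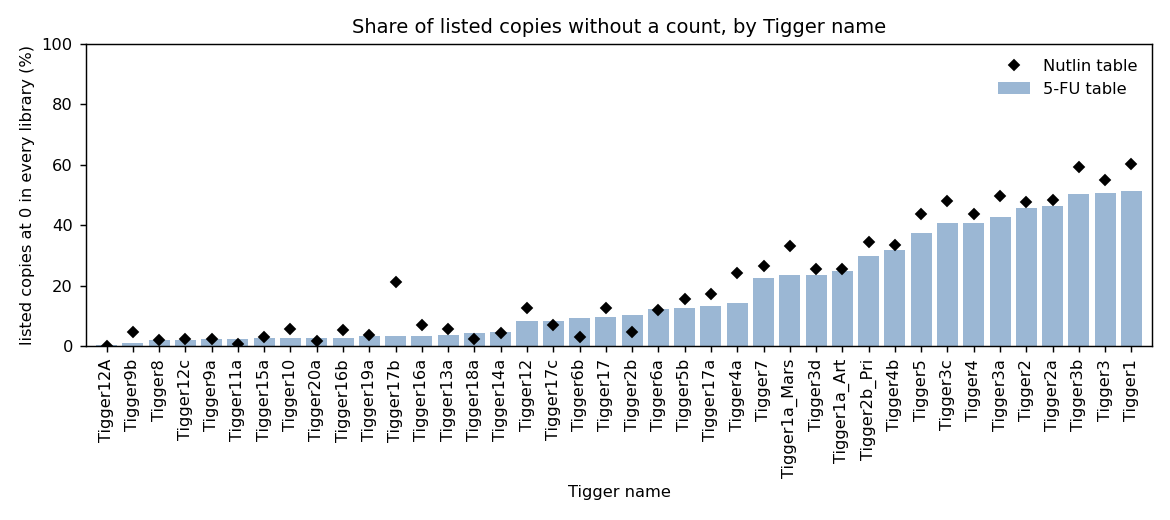
Share (y axis) of listed copies at 0 in every library, in percent, for each of the 40 Tigger names, as bars for the 5-FU table and diamonds for the Nutlin table. In the 5-FU table Tigger1, Tigger3 and Tigger3b sit above 50%, whereas Tigger12A, Tigger9b and Tigger8 lie under 2%.

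Detection and level per kilobase both went down with length. Of Tigger copies of 1 to 200 bp, 88.9% had a count in the 5-FU table, and this share was 65.2% at 201 to 500 bp, 55.2% at 501 to 1000 bp, 43.6% at 1001 to 2000 bp and 41.0% over the last of these lengths. Counts per kilobase fell along the same classes from 166 to 70.1, 39.1, 31.3 and 21.6. Copies with both ends of the repeat had a count in 50.7% of 6331 cases, against 76.8% of 16072 copies with neither end. The share of copies abundant enough to be tested rose with length instead, from 2.4% of the shortest class to 14.4% of the longest. In all, 1919 Tigger copies of the 5-FU table (4.50%, with 72.8% of Tigger counts) and 649 of the Nutlin table (66.9% of counts) passed edgeR's filter on low counts, and the others were not tested. A copy could pass through 1 group alone.

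Many Tigger insertions are split in the tables into adjoining pieces, and the usual interruption was an Alu. Pairs of neighbouring copies of 1 name were taken as pieces of 1 insertion where their positions in the repeat continued within 20 positions and the gap was at most 2 kb. There were 6544 such pairs in the 5-FU table, with a median gap of 301 bp, close to the length of an Alu element. In 4084 pairs (62.4%) the gap was 250 to 350 bp, and in 3930 of those (96.2%) a listed Alu copy filled at least 80% of it. The Nutlin table gave 4231 pairs with a median gap of 300 bp, and 2530 of 2648 gaps of that size (95.5%) held such an Alu. Alu is a retroposon that spread in primates after Tigger elements had entered the genome. A split insertion counts as several members, which are not independent of each other.

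**Figure D2:**
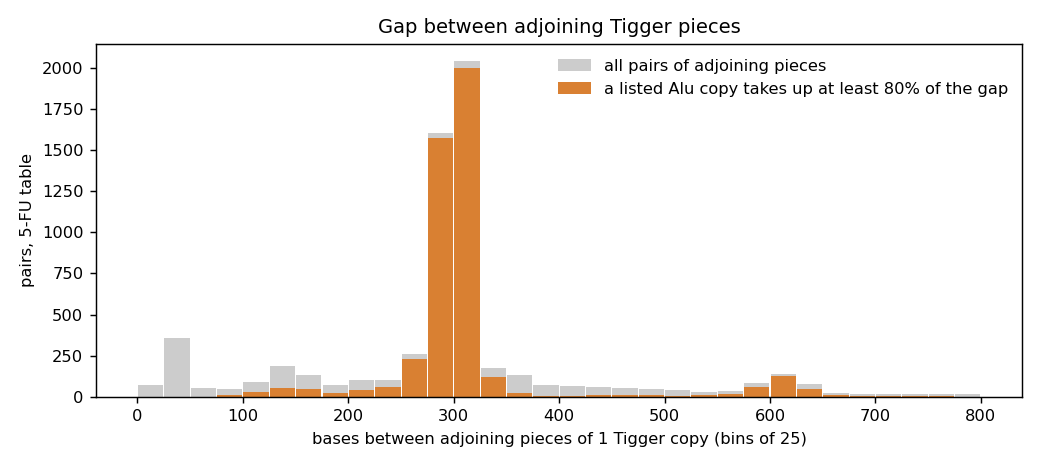
Number of pairs of adjoining pieces of 1 Tigger insertion against the gap between them in bp, for the 5-FU table. Grey bars are all pairs, and orange bars are pairs where a listed Alu copy takes up at least 80% of the gap. The peak between 250 and 350 bp holds 62.4% of the pairs. In the Nutlin table, which is not drawn, gaps of that size hold 62.6%.

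Tigger1 was the name with the most counts and the most copies, and Tigger counts were spread over many copies. Tigger1, an element of 2418 positions, took 24.3% of all 1071674 Tigger counts of the 5-FU table at a mean of 4230 CPM, with libraries from 3774 to 5030 CPM, and made up 20.9% of the listed Tigger copies. Tigger15a followed at 1128 CPM, then Tigger3a at 895, Tigger19a at 848, Tigger3b at 842 and Tigger10 at 761 CPM. The same 6 names led in the Nutlin table, where Tigger1 stood at 1261 CPM and took 23.1% of 270707 counts. Per kilobase of listed copies the order changed: Tigger10 had 348 counts, Tigger16b 308, Tigger14a 302 and Tigger16a 285, against 30.3 for Tigger1, which ranked 37 of 40, and 20.1 for Tigger3b. The most abundant copy held 2.35% of Tigger counts, the 10 most abundant 13.5% and the 100 most abundant 38.5%, and 246 copies held 50%.

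The most abundant Tigger copy in both tables was a fragment of Tigger16a at chr15:49171866-49172076 (hg19), which alone made up 68.5% of its name's counts in the 5-FU table. Over that table's 14 libraries it ranged from 309 through a median of 411 to 569 CPM. Among the 5 most abundant copies of each table were also the pieces of 1 Tigger1 insertion at chr3:112320812-112322091 and chr3:112322428-112323489, which cover positions 30 to 1324 and 1325 to 2418 of the element around a gap of 336 bp. In the 5-FU table the first piece ranged from 237 to 443 CPM with a median of 330, the second from 166 to 342 with a median of 257. A nearly whole Tigger1 was thus among the most abundant members. Tigger10 at chr1:235273100-235273424 (197 to 357 CPM) and chr1:235272616-235272871 (105 to 356 CPM), and Tigger4a at chr6:36456306-36456491 (115 to 391 CPM), completed the 6 highest copies of the 5-FU table. In the Nutlin table Tigger4b at chr2:110301378-110301693 took the place of the Tigger4a copy.

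The Tigger share of RNA depended on what it was taken of. Of all counts it ran from 1.38 to 2.16% over the libraries of the 5-FU table, lowest with 5-FU at 12 h (1.40% ± 0.0291, SD, n = 2) and highest with its DMSO (2.08% ± 0.108, n = 2). The band was narrower without structural RNA. With counts of ribosomal, transfer and small RNA repeats left out, Tigger made up 2.66% ± 0.0332 (SD, n = 2) of counts in untreated cells. It was 2.87% ± 0.0471 with DMSO at 6 h, 3.17% ± 0.0393 at 12 h and 2.67% ± 0.0532 at 24 h (n = 2 each). With 5-FU it was 2.79% ± 0.011, 2.54% ± 0.0372 and 2.68% ± 0.172 at the same times. DMSO at 12 h thus stood above every other group, and both of its libraries lay above all others. Those 2 libraries were also the 2 least deep of the table, at 2412334 and 2540089 counts, and the Charlie share was highest there too, at 1.98% ± 0.00153 against group means of 1.70 to 1.77% elsewhere in the table. The 5-FU libraries at 24 h differed, with 2.56% and 9560 Tigger copies detected in replicate 1 against 2.80% and 15477 copies in replicate 2. In the Nutlin table the share was 2.58% ± 0.0323 with DMSO, 2.47% ± 0.015 with Nutlin (n = 2 each), and 2.67% in the single untreated library (95% Wilson interval 2.65 to 2.69%, which covers counting error only).

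**Figure D3:**
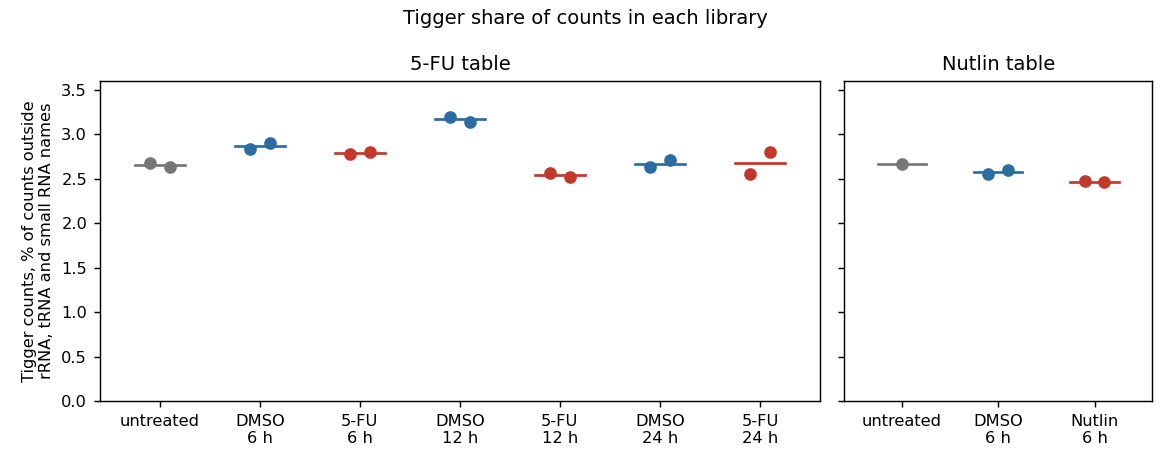
Tigger share of the counts without ribosomal, transfer and small RNA repeats, in percent, by library (points) and group mean (lines), for untreated (grey), DMSO (blue) and drug (red) libraries of both tables. The DMSO 12 h libraries stand highest at 3.14 and 3.2%.

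Nutlin changed single Tigger copies in both directions, at a rate near that of all repeats. Of 649 Tigger copies with enough counts to be tested, 46 (7.09%) differed from DMSO at an adjusted p under 0.05 (edgeR's quasi-likelihood test with Benjamini-Hochberg adjustment over all 24565 copies), against 7.66% of all copies tested. Of these, 29 were higher and 17 lower, and the backgrounds were 4.49% of all copies higher and 3.17% lower. With library size alone as the scaling the split was 20 higher and 26 lower. The median log2 fold change was -0.07 over the tested Tigger copies and 0.00 over all copies. The called copies carried 18 names, and 15 of the 46 were Tigger1, as were 186 of the 649 copies tested. In a bulk culture, more RNA per cell and more cells with the RNA cannot be told apart.

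The clearest rise was in a fragment of Tigger15a at chr4:123816895-123817131, covering positions 449 to 707 of that element. It stood at 10.4 and 11 CPM with DMSO, at 38.1 and 39.9 CPM with Nutlin and at 24.0 CPM in the untreated library. The Nutlin libraries were above all others. The log2 fold change against DMSO was 1.87 (SE 0.14, 3.64-fold, adjusted p = 2.0e-06, edgeR). Without drug, DMSO lay below the untreated library here.

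A Tigger3c fragment of 65 bp at chr10:101157174-101157238 rose from 25.7 and 30.1 CPM with DMSO to 73.5 and 84.0 CPM with Nutlin, with 15.0 CPM in untreated cells. The log2 fold change was 1.49 (SE 0.12, adjusted p = 7.1e-06). This copy held 36.9% of all Tigger3c counts in the table, and the whole name rose with it, as given below by name.

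A Tigger2 copy at chr19:58030578-58031372 was near silent without Nutlin. It had 1 and 2 counts with DMSO, 1 count in untreated cells, and 38 and 28 counts with Nutlin, at least 10.7-fold higher than a floor of 3 counts per library (adjusted p = 0.00087). Its adjoining piece at chr19:58031680-58032145, past a gap of 307 bp, was called in the same direction (adjusted p = 0.017). Of 6 other tested repeats within 10 kb, that piece among them, 6 had the same sign and 5 were called higher.

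All pieces of 1 Tigger1 insertion rose together with Nutlin. At chr3:40578188-40581111 it lay in 3 pieces, covering positions 1 to 641, 642 to 1306 and 1307 to 2418. The first piece, named here after its values were seen, went from 9.09 and 9.31 CPM with DMSO to 21.1 and 17.7 with Nutlin. The middle piece went from 9.30 and 7.95 to 18.8 and 18.3 CPM, and the last from 17.1 and 15.9 to 30.7 and 30.2 CPM. In each piece both Nutlin libraries were above both DMSO libraries. Groups overlapped in none of the 46 Tigger copies called with Nutlin, so this does not set the pieces apart. The share over all called repeats was not counted. The log2 fold changes were 1.08, 1.11 and 0.89, with adjusted p of 0.0017, 0.0014 and 0.0013. The middle and last pieces each had 12 other tested repeats within 10 kb, among them the other pieces of the insertion. All 12 had the same sign and 8 were called higher. Not every insertion did so: of the pairs of adjoining pieces with a Nutlin call, 4 had both pieces called and 3 had 1 piece alone. A long Tigger1 copy at chr6:64276465-64278603 rose from 0.974 and 3.24 CPM to 12.6 and 10.3 CPM (5.41-fold, adjusted p = 0.00098).

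Among copies that fell with Nutlin, Tigger3a at chr20:37581407-37581584 had the smallest p. It stood at 5.84 and 9 CPM with DMSO, 5.74 CPM in untreated cells, and 0.807 and 1.11 CPM with Nutlin (log2 fold change -2.97, SE 0.36, adjusted p = 0.00019). Fragments of 1 Tigger18a insertion at chr13:21728116-21728235 and chr13:21728259-21728397 fell from 7.14 and 7.74 to 2.42 and 2.82 CPM, and from 9.74 and 9.52 to 2.33 and 5.28 CPM (adjusted p = 0.0031 and 0.012). Tigger17c at chr18:56416716-56416918 fell from 11.4 and 9.94 to 4.39 and 4.17 CPM (adjusted p = 0.0026). In all these copies the Nutlin libraries lay below both DMSO libraries. The rule for naming copies required no overlap, and no Tigger copy called with Nutlin had any, so this does not set these copies apart. The most abundant member, the Tigger16a fragment on chromosome 15, fell from 151 and 141 to 106 and 106 CPM (log2 fold change -0.46, SE 0.10, adjusted p = 0.011).

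After 6 h of 5-FU no Tigger copy was called among 1919 tested by edgeR's quasi-likelihood test, where 0.101% of all 63602 copies were called (0.0896% higher and 0.011% lower). At an unadjusted p under 0.05 there were 113 of the 1919 Tigger copies and 4690 of all 63602 copies, and DESeq2 called 1 Tigger copy. The Tigger1 copy on chromosome 7 described next stood at 30.6 and 31.4 CPM with 5-FU against 17.7 and 20.9 CPM with its DMSO, without overlap, and was not called.

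At 12 h 5-FU gave the largest number of Tigger calls, and most were lower than DMSO. Of 1919 tested copies 157 (8.18%) were called, against 9.71% of all copies tested. They were 61 higher and 96 lower, where 5.44% of all copies were called higher and 4.27% lower. Library size alone gave 33 higher and 186 lower. The tested Tigger copies had a median log2 fold change of -0.36, against -0.04 over all copies, and 612 of them had a group at 3 counts or fewer in both libraries. With those copies set at their bound against 3 counts the medians were -0.25 and 0.00. Under library size alone they were -0.68 and -0.36. Charlie copies and short relatives of Tigger also had negative medians, -0.27 and -0.30. Each of the 4 libraries compared moved the Tigger count: it was 50 without DMSO replicate 1, 60 without DMSO replicate 2, 58 without 5-FU replicate 1 and 54 without 5-FU replicate 2.

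Because the DMSO 12 h libraries stood apart in depth and Tigger share, the 12 h drug libraries were also set against DMSO at 6 and 24 h. This gave 272 Tigger calls, 135 higher and 137 lower, where 14.7% of all copies were called. Of the 157 copies called against the matched DMSO, 95 were called in the same direction (45 higher and 50 lower), none in the opposite direction, and 6 had the opposite sign. The part of the DMSO 12 h libraries in the other calls was not tested further.

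Tigger1 at chr7:22523060-22524180, a piece with positions 1 to 1380, had the smallest p among the rises at 12 h that were also called against the other controls. In untreated cells it stood at 44.3 and 43.9 CPM. DMSO libraries were low throughout, with 17.7 and 20.9 CPM at 6 h, then 13.3 and 13.4, and finally 17.6 and 15.0 at 24 h. The 5-FU libraries reached 67.9 and 59.5 CPM by 12 h, then 50.7 and 32.1 CPM by 24 h. At every time the drug libraries lay above their DMSO. The log2 fold change was 2.25 (SE 0.26, 4.76-fold, adjusted p = 1.3e-05, edgeR) at 12 h and 1.34 (SE 0.24, adjusted p = 0.0016) at 24 h, and 1.84 (adjusted p = 2.6e-06) at 12 h against the other DMSO times. DMSO against untreated gave -1.45 (SE 0.19, adjusted p = 0.00021), and since these comparisons share DMSO libraries, a low DMSO value enters both. The adjoining piece at chr7:22524202-22525108 rose at 12 h (log2 fold change 1.71, adjusted p = 0.00072) and fell with Nutlin (-1.09, adjusted p = 0.034), where the first piece had -0.92 and an adjusted p of 0.055.

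Tigger11a at chr11:68768348-68768681 was low in every control and every untreated library, from 1.03 to 3.12 CPM. In the 5-FU libraries it stood at 4.71 and 4.94 CPM (6 h), then 12.3 and 18.6 CPM (12 h) and last 15.3 and 10.1 CPM (24 h). All 6 drug libraries were above all 8 others. It rose 11.5-fold at 12 h (3.52 on the log2 scale, SE 0.50, adjusted p = 0.00012) and at 24 h (3.10, SE 0.43, adjusted p = 0.00013). Tigger19a at chr16:15961351-15961446 rose at 12 h from 3.71 and 5.35 to 32.6 and 28.5 CPM (log2 fold change 2.75, adjusted p = 0.00012), with 8.74 to 14.4 CPM in the other DMSO libraries. Tigger1 at chr14:62352981-62353620 had 0 and 1 counts with DMSO at 12 h and 56 and 66 counts with 5-FU, at least 15.8-fold higher (adjusted p = 0.00011). The levels of this copy in the other DMSO and untreated libraries are not given here, so it is not said which group stood apart.

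The smallest p at 12 h belonged to a copy in which the control, not the drug, stood apart. Tigger4b at chr16:29453571-29453909 was at 0 in each of the DMSO 12 h libraries and at 17.9 to 33.5 CPM in the 12 others, 5-FU 12 h among them at 17.9 and 23.5 CPM. Against its DMSO it was at least 18.3-fold higher (adjusted p = 2.2e-07), and against DMSO at 6 and 24 h its log2 fold change was -0.51 (adjusted p = 0.13). Of 4 other tested repeats within 10 kb, 0 shared its sign. The mirror image was Tigger15a at chr7:135416660-135417025, with 26.7 and 38.6 CPM in DMSO at 12 h and 1.45 to 7.51 CPM in all others. It was called lower with 5-FU (log2 fold change -3.88, adjusted p = 1.2e-05), with -1.06 and an adjusted p of 0.10 against the other DMSO times, and 5 of its 6 tested neighbours were called lower as well.

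Other copies fell at 12 h with the other controls too. Tigger3 lay in 3 pieces at chr7:30050401-30050660, chr7:30050957-30051128 and chr7:30051475-30051763, positions 2289 to 3029 of the element with gaps of 296 and 346 bp. The first piece stood at 31.9 and 29.1 CPM with DMSO at 12 h, 6.76 and 5.81 CPM with 5-FU, and 10.8 to 19.7 CPM in the untreated and other DMSO libraries. The drug libraries were the lower in each case. At 12 h its log2 fold change was -2.27 (adjusted p = 9.1e-05, SE 0.31), at 24 h it was -1.37 (adjusted p = 0.0080), and against the other DMSO times its value was -1.27 (adjusted p = 0.0048). The other pieces fell by 1.20 each on the log2 scale at 12 h (adjusted p = 0.0099 and 0.0018). Tigger4a at chr18:2803795-2804051 fell from 37.1 and 37.1 to 15.3 and 14.8 CPM at 12 h and from 28.8 and 29.2 to 10.9 and 9.76 CPM at 24 h (adjusted p = 0.0017 and 0.00050).

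**Figure D4:**
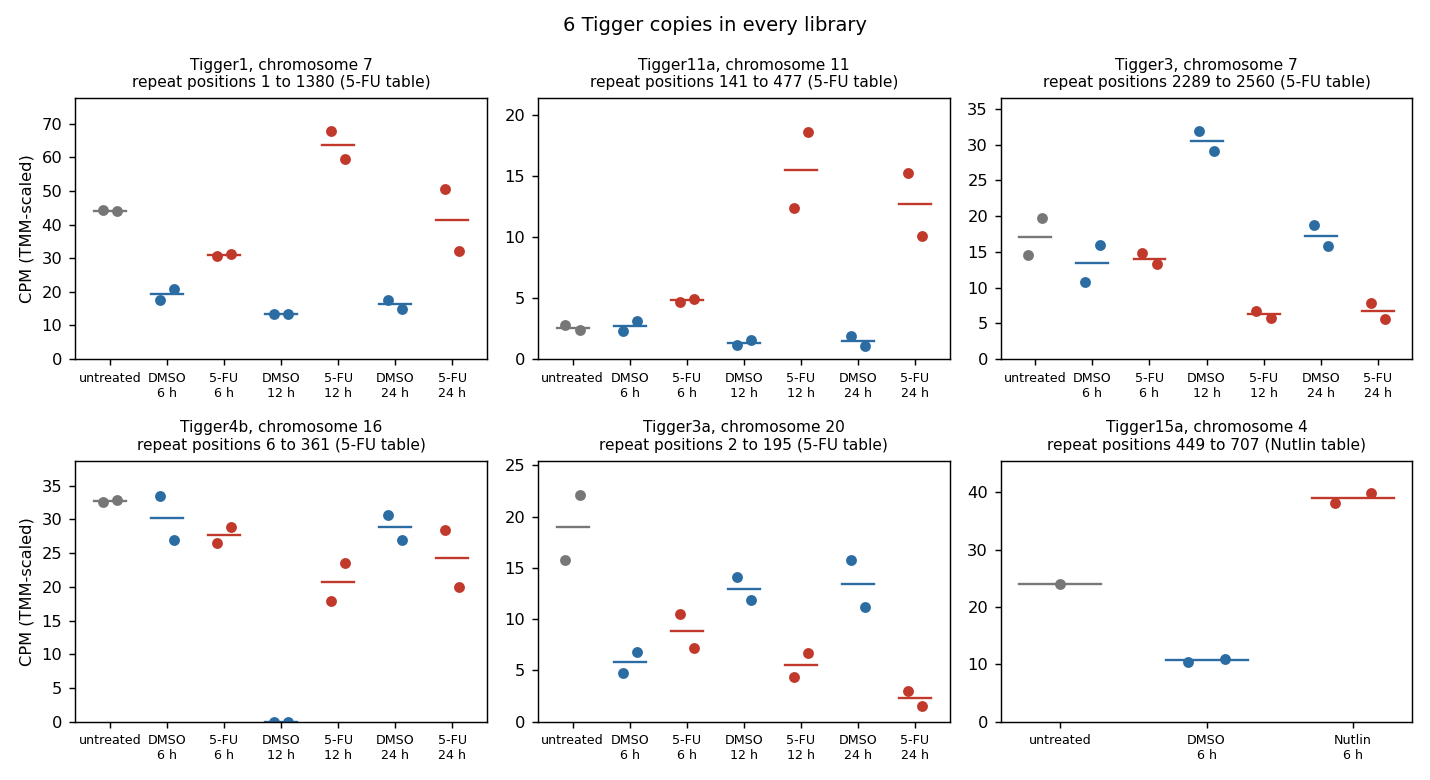
Level in CPM of 6 Tigger copies in every library, with group means as lines, for untreated (grey), DMSO (blue) and drug (red) libraries. The Tigger1 copy on chromosome 7 is highest with 5-FU at 12 h, and the Tigger11a copy with 5-FU at 12 and 24 h. The Tigger4b copy on chromosome 16 is at 0 in DMSO 12 h alone, and the Tigger15a copy on chromosome 4 is shown for the Nutlin table.

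At 24 h of 5-FU 80 of 1919 Tigger copies (4.17%) were called, 43 higher and 37 lower, against 4.23% of all copies, with 2.42% higher and 1.82% lower. Library size alone gave 33 higher and 48 lower. The median log2 fold change was 0.04 over Tigger and 0.00 over all copies. The count was 23 without DMSO replicate 1 and 24 without DMSO replicate 2, and 65 without either drug library. The called copies carried 20 names, and 25 of the 80 were Tigger1, as were 638 of the 1919 copies tested.

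Tigger1 copies moved in both directions at 24 h, 14 higher and 11 lower, and of those over 2000 bp 4 were higher and 5 lower. Among the rises, at chr3:185357781-185359145 the level was 21.3 and 21.7 CPM with DMSO and 59.8 and 60.1 CPM with 5-FU, 2.78-fold higher (1.48 on the log2 scale, SE 0.23, adjusted p = 0.00048). It also rose at 12 h (1.07, adjusted p = 0.010), and 17 of 18 tested neighbours had the same sign at 24 h. At chr9:68415031-68416189 it was 18.5 and 24.1 CPM with DMSO and 53.7 and 52.8 CPM with 5-FU (2.50-fold, adjusted p = 0.0010). In both copies the drug libraries were above all 12 others. Tigger14a at chr2:203070992-203071098 rose from 13.7 and 13.1 to 47.3 and 31.1 CPM (adjusted p = 0.00081), and Tigger1 at chr9:114549063-114550344 from 10.1 and 8.95 to 47.0 and 22.9 CPM (adjusted p = 0.0011).

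Among the falls with the smallest p at 24 h was a nearly full-length Tigger1 copy. At chr15:48454744-48457198, positions 2 to 2417, it went from 15.7 and 10.5 CPM with DMSO to 1.62 and 2.79 CPM with 5-FU (-2.52 on the log2 scale, SE 0.43, adjusted p = 0.00098). Tigger3a on chromosome 20, which fell with Nutlin, also fell here, from 15.7 and 11.2 to 3.01 and 1.55 CPM (-2.60, SE 0.40, adjusted p = 0.00037). The Tigger18a fragment at chr13:21728116-21728235 did so too, from 14.4 and 10.3 to 1.85 and 3.10 CPM (-2.27, adjusted p = 0.0016). Tigger5b at chr3:160152302-160152380 fell from 24.7 and 29.6 to 9.5 and 5.42 CPM (-1.89, adjusted p = 0.00045), with 9 of 9 tested neighbours of the same sign and 4 of them called lower. Tigger19a at chr4:25279770-25279855 fell from 27.7 and 23.1 to 9.73 and 4.80 CPM (adjusted p = 0.00051). In all 5 copies the drug libraries lay below both DMSO libraries. The rule for naming copies required no overlap, and no Tigger copy called at 24 h had any, so this does not set these copies apart.

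The 5-FU effect at 24 h minus that at 6 h was called for 4 Tigger copies, all lower (0.208%, against 0.385% of all copies, of which 0.0865% were higher and 0.299% lower). They were the Tigger3a copy on chromosome 20, the Tigger18a and Tigger5b copies just described, and a Tigger7 copy. Tigger3a stood at 4.79 and 6.83 CPM with DMSO and 10.5 and 7.22 CPM with 5-FU at 6 h, so its sign at 6 h was the opposite of that at 24 h. The difference was -3.20 (SE 0.55, adjusted p = 0.0057). The number of copies called was 0 without 5-FU 6 h replicate 1, 1 without DMSO 6 h replicate 2, 5-FU 6 h replicate 2 or DMSO 24 h replicate 1, 2 without DMSO 6 h replicate 1 and 9 without 5-FU 24 h replicate 1. The DMSO level of Tigger3a at 6 h was below that at 24 h and below the untreated libraries at 15.8 and 22.1 CPM.

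DMSO itself went with changed Tigger copies. Against untreated cells 23 of 1919 copies (1.20%) were called over the 3 DMSO groups, 13 higher and 10 lower, against 1.66% of all copies, with 0.643% higher and 1.02% lower. The median log2 fold change was 0.20 over Tigger and 0.01 over all copies. Library size alone gave 12 higher and 29 lower. The count fell to 7 without untreated replicate 1 and to 2 without untreated replicate 2, and was 15 without DMSO 6 h replicate 2. Untreated cells had fresh medium for 12 h. The labels give no time of a medium change for the DMSO groups, which were treated for 6, 12 or 24 h. Vehicle and time since the medium change therefore cannot be told apart.

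A full-length Tigger1 copy at chr2:191781436-191783909, positions 1 to 2418, stood at 40 and 33.2 CPM in untreated cells and 62.6 to 103 CPM in the 6 DMSO libraries, without overlap (log2 fold change 1.03, adjusted p = 0.0046). All 12 of its tested neighbours had the same sign. Tigger1 at chr9:21528919-21531015 went from 10.3 and 10.2 CPM to between 17.4 and 36.0 CPM (1.37, adjusted p = 0.0046), and 18 of 18 neighbours had the same sign. Tigger6a at chr2:75466081-75467068 was lower with DMSO, at 4.37 to 11.9 CPM against 21.3 and 33.8 CPM (-1.77, adjusted p = 0.0011). It was higher with 5-FU than DMSO at 12 h (37.3 and 43.0 against 11.9 and 9.56 CPM, 1.90, adjusted p = 0.0016), a comparison that shares the DMSO 12 h libraries.

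By name the changes were small, and few calls held without the most abundant copy of the name. Over all comparisons there were 21 calls of a Tigger name, and without that copy 3 stayed called, while 14 kept over 50% of their log2 fold change. With Nutlin 4 of 39 Tigger names were called, 1 higher and 3 lower, against 12.6% of all 1039 names (9.43% higher and 3.18% lower). RLE size factors gave 1 higher and 7 lower, and library size alone 1 higher and 13 lower. Tigger3c went from 98.1 and 108 to 160 and 153 CPM (log2 fold change 0.60, SE 0.10, adjusted p = 2.3e-06), but without its most abundant copy the value was 0.04. Tigger18a fell from 65.5 and 65.0 to 39.4 and 43.2 CPM (-0.66, SE 0.11, adjusted p = 8.4e-06) and stayed called without its top copy (-0.57, adjusted p = 0.0031). That copy, a chromosome 13 fragment, held 13.5% of the name's counts, and the fragment beside it, itself called lower (-1.51), stayed in. In all, 4 Tigger18a copies were called lower with Nutlin. Tigger16a fell from 201 and 201 to 164 and 153 CPM (-0.34, adjusted p = 0.0063; -0.08 without the top copy), and Tigger3 from 88.2 and 76.9 to 67.9 and 63.3 CPM (-0.33, adjusted p = 0.028; -0.32 without the top copy). The number called was 0 without Nutlin replicate 1, 2 without Nutlin replicate 2 and 2 without DMSO replicate 2.

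At 6 h of 5-FU 0 of 40 Tigger names and 0% of all 1078 names were called by edgeR. At an unadjusted p under 0.05 there were 5 of the 40 Tigger names and 126 of all 1078 names, and DESeq2 called 0 Tigger names. At 12 h 10 names were called, 3 higher and 7 lower, against 33.8% of all names, of which 28.5% were higher and 5.29% lower. The median log2 fold change was -0.02 over Tigger names and 0.17 over all names, and under library size alone these were -0.59 and -0.40. Other scalings shifted the split to 1 risen and 17 fallen Tigger names (RLE), 1 and 21 (TMM from the tested copies) or 1 and 33 (library size alone). Leaving out DMSO replicate 1 or 5-FU replicate 1 left 1 name called, and leaving out either replicate 2 left 3.

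Tigger3d rose at 12 h from 93.4 and 89.4 to 188 and 167 CPM (log2 fold change 0.96, SE 0.14, adjusted p = 0.00022). Most Tigger3d counts (84.6%) came from chr1:3696703-3696997, and the rest of the name had -0.52 (adjusted p = 0.20). Tigger3 fell from 237 and 221 to 182 and 185 CPM (-0.32, adjusted p = 0.0067), Tigger8 from 137 and 117 to 88.7 and 88.6 CPM (-0.52, adjusted p = 0.0096) and Tigger6b from 18.6 and 19.5 to 10.3 and 9.46 CPM (-0.94, adjusted p = 0.025). In these 3 names the 5-FU 12 h libraries were lower than all 12 others. Tigger2a fell from 413 and 403 to 347 and 355 CPM (-0.22, adjusted p = 0.022), and it alone of the 10 names called at 12 h stayed called without its top copy (-0.24, adjusted p = 0.046). The others lost the call but not always the fold: 8 of the 10 kept over 50% of their log2 fold change, such as Tigger6b (-0.79) and Tigger8 (-0.31), whereas Tigger3 went to -0.11. Tigger17a (-0.28, adjusted p = 0.032) and Tigger12A (-0.31, adjusted p = 0.034) also fell, with -0.20 and -0.26 without their top copies. Tigger7 was higher (0.22, adjusted p = 0.026), but with library size alone its value was -0.35, and it was near 0 with TMM factors from the tested copies (-0.024) and against DMSO at 6 and 24 h (-0.0085).

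**Figure D5:**
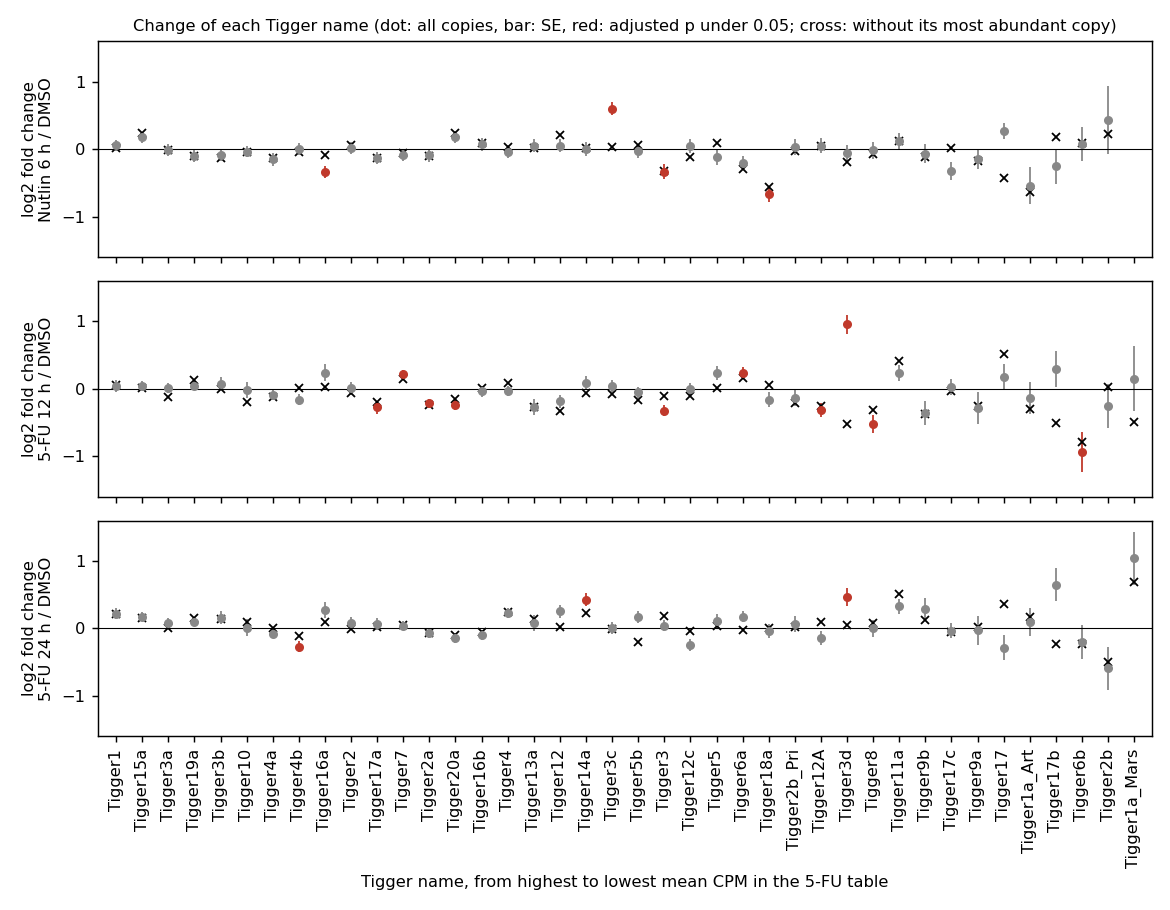
Log2 fold change (y axis) of each Tigger name with Nutlin and with 5-FU at 12 and 24 h, with bars for the SE, called names in red, and crosses for the value without the most abundant copy. Most names lie near 0, and Tigger3d at 12 h (0.96) and Tigger3c with Nutlin (0.60) are the highest of the called names.

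At 24 h 3 of 40 names were called, 2 higher and 1 lower, against 12.1% of all names (10.9% higher and 1.21% lower). RLE size factors gave 0 higher and 3 lower. Tigger14a rose from 255 and 243 to 372 and 299 CPM (log2 fold change 0.43, SE 0.10, adjusted p = 0.012), Tigger3d from 115 and 114 to 187 and 132 CPM (0.47, adjusted p = 0.037), and Tigger4b fell from 727 and 685 to 563 and 608 CPM (-0.27, adjusted p = 0.038). The Tigger4b copy at chr2:110301378-110301693 moved with its name, from 198 and 164 to 114 and 73.7 CPM (-0.95, adjusted p = 0.011), and at 12 h from 201 and 222 to 111 and 124 CPM (-0.85, adjusted p = 0.015). No Tigger name was called at 24 h without DMSO replicate 1 or without DMSO replicate 2, and 9 and 6 were called without 5-FU replicates 1 and 2.

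For the 24 h minus 6 h difference 0 Tigger names were called by edgeR (1.11% of all names, 0.835% higher and 0.278% lower). There were 2 of 40 Tigger names at an unadjusted p under 0.05, against 119 of all 1078 names, and DESeq2 called 1 Tigger name. Between DMSO and untreated cells 4 were called, 1 higher and 3 lower, against 11.8% of all names (1.67% higher and 10.1% lower). TMM factors from the tested copies gave 11 higher and 1 lower, and RLE size factors 1 and 1. Tigger4a was higher with DMSO (0.30, adjusted p = 0.0074), with 638 and 620 CPM in untreated cells and 653 to 927 CPM in DMSO libraries. Tigger17 went from 100 and 88.2 CPM to between 48.1 and 72.3 CPM (-0.66, adjusted p = 0.014). Neither name overlapped between the groups, and the number of names called was 0 without untreated replicate 1 or untreated replicate 2, and 2 without either DMSO replicate of 6 or 12 h or replicate 2 of 24 h.

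Short repeats without a transposase gene of their own that are placed with Tigger, such as MER44A and MER47A, were read from a list of 15 names, of which 14 were in the tables. With Nutlin 0 of the 14 were called by edgeR, with 1 at an unadjusted p under 0.05, against 267 of all 1039 names. At 12 h of 5-FU 3 were called higher, MER44A (log2 fold change 0.32, adjusted p = 0.016), MER47A (0.23, adjusted p = 0.018) and MER47C (0.46, adjusted p = 0.014), and none lower. At 24 h 1 was called, MER46C (0.24, adjusted p = 0.029). Of 39 Charlie names 4 were called with Nutlin, 1 higher and 3 lower. With 5-FU 14 Charlie names were called at 12 h, 11 higher and 3 lower. At 24 h 6 were called, 5 higher and 1 lower. Of all names tested, 12.6% were called with Nutlin, 33.8% at 12 h (28.5% higher and 5.29% lower) and 12.1% at 24 h.

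Calls at 12 and 24 h of 5-FU shared Tigger copies, and calls with Nutlin shared fewer. The 12 h and 24 h comparisons use different libraries, though 1 fit gave both their spread. They shared 32 copies, all in the same direction, 20.4% of the 12 h calls and 40% of the 24 h calls. Shared calls were not counted over all repeats, so none of these overlaps is read as a trait of Tigger. Nutlin and 5-FU at 24 h shared 4 copies (8.70% and 5%), of which 3 had the same direction: the Tigger3a copy on chromosome 20 and both Tigger18a fragments on chromosome 13, all lower. The other, Tigger4 at chr12:78421762-78423972, went from 5.08 and 8.48 to 2.78 and 2.46 CPM with Nutlin and rose at 24 h from 32.0 and 27.5 to 73.0 and 64.7 CPM (1.21, adjusted p = 0.0019). Both Tigger18a fragments, which lie side by side, were also called lower with DMSO against untreated cells (log2 fold changes -1.15 and -1.22). Nutlin and 5-FU at 12 h shared 6 copies (13.0% and 3.82%), of which 1 had the same direction. Of all 1919 Tigger copies tested there, 4.17% were called at 24 h and 8.18% at 12 h. All 46 Nutlin calls were tested in the 5-FU table, whereas 106 of 157 and 58 of 80 5-FU calls were tested in the Nutlin table.

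Most repeats near called Tigger copies had the same sign as the copy, though many were not called themselves. Neighbours, here and above, include tested adjoining pieces of the same insertion. Within 10 kb, 92.0% of other tested repeats around copies called with Nutlin had the same sign as the copy, against 70.6% around all tested Tigger copies. At 12 h of 5-FU the shares were 86.4 and 67.4%, at 24 h 91.9 and 65.3%, and for DMSO against untreated 89.9 and 63.4%. Of the called copies 7, 19, 10 and 2 had no tested neighbour. At least 1 neighbour was called in the same direction for 29 of 46 called copies with Nutlin, 81 of 157 at 12 h, 40 of 80 at 24 h and 10 of 23 with DMSO. Of all tested Tigger copies, 84 of 649 with Nutlin had a neighbour called with their own sign. Of the 1919 tested in the 5-FU table, 412 did at 12 h, 156 at 24 h and 64 with DMSO. A neighbour was called in the opposite direction for 0, 4, 2 and 0 of the called copies. Adjoining pieces of 1 insertion, tested in 50 pairs with Nutlin and 150 pairs with 5-FU, had the same sign in 86.0% of pairs with Nutlin, 64.7% at 6 h, 76.7% at 12 h and 72.0% at 24 h. Both pieces were called in 8 and 5 pairs at 12 and 24 h, and 1 piece alone in 22 and 10. Wherever both were called, with Nutlin or 5-FU, they had the same direction.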

How the data were processed

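The deposited tables hold whole-number read counts per repeat copy, made by the authors; the submitters' processing notes name Trimmomatic 0.32, cutadapt 1.10, Bowtie2, edgeR, DESeq2 and the build hg19. RNA was prepared with a stranded total RNA kit, per the labels' protocols. Strand use in counting and the treatment of reads that match several copies are not given in the sources used here, so counts of near-identical copies and of overlapping opposite-strand transcripts are uncertain. Positions are as in the tables. No hg19 genome or annotation was used here, so no copy was assigned to a gene.

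Counts were tested per copy and summed per name with edgeR 4.0.16 in R 4.3.3 (TMM, filterByExpr, quasi-likelihood F test, all groups of a table in 1 fit), with p-values adjusted by the Benjamini-Hochberg method over all copies or names of the table. SE is the log2 fold change divided by the square root of F. The code was tested on simulated data. Alternatives were DESeq2 1.42.0, other scalings, filters, controls and libraries left out. Members and lists were chosen with earlier results of these data known. Text names were chosen by rule: called names with the 8 smallest p, the 6 risen and 6 fallen called copies with the smallest p and no overlap, and the 6 most abundant; others, including adjoining pieces and shared calls, were added after their values were seen.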

Additional observations from a re-analysis of the deposited data

Results flagged for a closer look

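The 5-FU effect differed between 24 h and 6 h for 4 Tigger copies, by edgeR's quasi-likelihood test of the difference itself with Benjamini-Hochberg adjustment over 63602 copies. For Tigger3a at chr20:37581407-37581584 the log2 effect at 24 h minus that at 6 h was -3.20 (adjusted p = 0.0057). For Tigger18a at chr13:21728116-21728235 it was -2.84 (adjusted p = 0.022), with 6.66 and 4.30 CPM in DMSO and 7.50 and 8.74 CPM in 5-FU at 6 h, against 14.4 and 10.3 CPM and 1.85 and 3.10 CPM at 24 h. For Tigger5b at chr3:160152302-160152380 it was -1.99 (adjusted p = 0.030), with 14.4 and 14.5 CPM in DMSO and 13.9 and 16.9 CPM in 5-FU at 6 h. For Tigger7 at chr8:27663564-27663675 the fitted value was -5.85 (adjusted p = 0.036) and rests on few counts: 5 and 2 in DMSO and 6 and 12 in 5-FU at 6 h, 15 and 16 in DMSO and 0 and 1 in 5-FU at 24 h. In all 4 copies both DMSO libraries at 6 h lay below both DMSO libraries at 24 h and both untreated libraries. Without 5-FU 6 h replicate 1, 0 Tigger copies were called.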

How the results depend on the processing

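The values below count called Tigger copies or names, with the main count of each comparison first. The cause of each change was not tested unless the alternative itself uses fewer features or libraries. Shares over all features are not given here for these alternatives, nor above for the splits under other scalings. For copies, the counts with Nutlin (46) were 16 at an adjusted p under 0.01 and 22 with DESeq2, and 48 to 58 without each library in turn. At 6 h (0) the count was 1 with at least 10 counts in every library and 1 with DESeq2. At 12 h (157) it was 49 at 0.01, 66 with no filter, 272 against DMSO at 6 and 24 h, and 50 to 60 without each library. At 24 h (80) it was 32 at 0.01, 36 with no filter, 36 with only the groups compared, and 23 to 65 without each library. For 24 h minus 6 h (4) it was 1 at 0.01, 8 with library size alone, 19 with at least 10 counts, 12 with DESeq2, 1 with only the groups compared, and 0 to 9 without each library. For DMSO against untreated (23) it was 10, 41, 47, 36 and 50 under the same alternatives, 38 for DMSO at 12 h alone, 9 for DMSO at 24 h alone, and 2 to 17 without each library.

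For names, Nutlin (4) gave 8 with RLE size factors, 14 with library size alone, 1 without the most abundant copy of each name and 0 to 4 without each library. At 6 h (0) only the groups compared gave 4. At 12 h (10) the count was 3 at 0.01, 18 with RLE, 34 with library size alone, 22 with TMM factors from the tested copies (an alternative chosen after seeing the data), 6 without structural RNA, 16 with DESeq2, 19 with only the groups compared, 3 without the top copy, 21 against DMSO at 6 and 24 h and 1 to 3 without each library. At 24 h (3) it was 0 at 0.01, 1 with library size alone, 0 with only the groups compared, 1 without the top copy and 0 to 9 without each library. For 24 h minus 6 h (0) DESeq2 gave 1, and 0 to 5 were called without each library. For DMSO against untreated (4) the count was 1 at 0.01, 2 with RLE, 1 with library size alone, 12 with TMM factors from the tested copies, 2 without structural RNA, 11 with only the groups compared, 1 without the top copy, 7 for DMSO at 6 h alone, 0 at 24 h alone and 0 to 3 without each library.

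Of 52 results for copies named by rule 29 were called the same way under every alternative that tested them, as were 0 of 19 results for names. The filter on at least 10 counts in every library kept 34 of the 52, and DESeq2 gave an adjusted p for 50, so the others were not judged there. The sign was opposite for the Tigger4b copy on chromosome 16 against DMSO at 6 and 24 h (-0.51), for Tigger3d at 12 h without its top copy (-0.52), and for Tigger7 at 12 h with library size alone (-0.35), TMM factors from the tested copies (-0.024) and DMSO at 6 and 24 h (-0.0085). Over the libraries the median Tigger share was 1.79% (5-FU) and 0.546% (Nutlin) of all counts, and 2.75% and 2.56% without structural RNA.

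Replicate numbers were not used to pair the libraries in the main fit. The correlations of replicate 1 minus replicate 2 between compared groups were -0.011 with Nutlin, and -0.004, -0.017 and 0.154 with 5-FU at 6, 12 and 24 h. Most copies had low counts, so values near 0 cannot exclude a pairing. With the replicate block the counts of copies were 55 with Nutlin, 0, 141 and 71 with 5-FU at 6, 12 and 24 h, 3 for 24 h minus 6 h and 20 for DMSO against untreated, and of names 4, 0, 8, 2, 0 and 3. The 2 libraries a group and the low counts of most copies limit what could be called.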
